A study of Caenorhabditis elegans with 2 samples.

Results

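The basic helix-loop-helix (bHLH), T-box and Sox genes of Caenorhabditis elegans encode transcription factors that choose cell fates in muscle, neurons, glia, epidermis and pharynx. Members were chosen by name: protein-coding genes called hlh- (without hlh-8), tbx- or sox-, with ngn-1, cnd-1, hnd-1, mxl-1, mxl-2, mxl-3, mdl-1 and the zinc finger genes lin-26, egl-43 and egl-46. The rule found 56 of 19973 nuclear protein-coding genes. They carry 55 names, since tbx-30 names 2 genes. The rule uses names alone, but it was written with earlier results of these data known.

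The measurement was chromatin immunoprecipitation followed by sequencing of MAB-5, a Hox protein of the posterior body, tagged with enhanced green fluorescent protein. The material was whole L2 larvae of mixed sex from strain OP27, whose genotype is given as unc-119(ed3) III; wgIs27, and the antibody is listed as mab-5. There were 2 biological replicates of 1 group, and no other group was analysed here, so nothing could be compared between conditions. The tagged gene is an insertion, so the animals hold it beside any native copy, and a whole-animal signal does not say which cells gave it.

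Proteins of the bHLH class bind DNA as pairs at E-boxes, short sites with the letters CANNTG. HLH-2, the Daughterless-like E protein, is the common partner of tissue-specific bHLH proteins, while some leucine zipper bHLH proteins form a separate network around Max-like partners. T-box and Sox proteins bind through unrelated domains, and Hox proteins bind many sites together with PBC homeodomain partners. MAB-5 is known for its part in the left Q neuroblast, the M mesoblast, the posterior epidermis and the male tail, where several of these factors also act.

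The start of 2 of these genes, and the introns of 1, held a MAB-5 peak. Peaks are those of the authors' list that passed the irreproducible discovery rate (IDR), a measure of how well peak ranks repeat between replicates. On genome build ce11 it holds 2197 peaks, 2174 of them nuclear. The IDR peaks in and near hlh-30 had the same rank there as in the list pooled over replicates, such as 373 and 2076. Of the 2174 nuclear peaks, 2152 had a match in both replicates, so a place in the list does not show that a peak repeated. Promoters were taken as 2000 bp before and 500 bp after each gene start. Only hlh-11 and mdl-1, both of the leucine zipper class, had a peak summit there. That is 2 of 56 members (3.57%, 95% Wilson interval 0.985 to 12.1), against 9.59% of all protein-coding genes. The interval includes the share of all genes, so the difference was not larger than the counting error, which takes genes as independent. An intron held a summit in 1 member, hlh-30 (1.79%, interval 0.316 to 9.45), against 2.15% of all genes. Within 10 kb of the start, on either side, 18 members had a summit (32.1%, interval 21.4 to 45.2), against 32.5% of all genes, so that count is no result about these genes. The other 38 members had no summit in any of these positions.

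The sequences below are those of the strongest summit in each of the members' promoters and of 2 summits in an intron, followed by the strongest summit near any member and by the summits near hlh-4 and hlh-12, which each hold 2 Hox-PBC composite sites. Each is the plus strand of ce11, taken from NCBI's copy of assembly WBcel235, from 100 bp before to 100 bp after the summit. Capitals mark TGATNNAT, a form of the composite site bound jointly by Hox and PBC proteins, CACGTG, the E-box of the Max network, and GAGAGA, each on either strand.
mdl-1 promoter, chrX:6742164-6742364: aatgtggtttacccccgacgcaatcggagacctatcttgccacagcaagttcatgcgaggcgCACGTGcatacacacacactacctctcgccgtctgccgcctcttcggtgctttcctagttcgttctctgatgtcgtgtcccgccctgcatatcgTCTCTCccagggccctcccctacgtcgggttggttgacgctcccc
hlh-11 promoter, chrIII:9619302-9619502: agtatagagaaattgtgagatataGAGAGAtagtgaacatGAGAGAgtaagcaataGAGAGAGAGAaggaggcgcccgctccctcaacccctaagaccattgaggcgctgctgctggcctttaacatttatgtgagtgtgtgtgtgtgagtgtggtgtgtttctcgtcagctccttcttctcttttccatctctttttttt
hlh-30 intron, strongest, chrIV:4022521-4022721: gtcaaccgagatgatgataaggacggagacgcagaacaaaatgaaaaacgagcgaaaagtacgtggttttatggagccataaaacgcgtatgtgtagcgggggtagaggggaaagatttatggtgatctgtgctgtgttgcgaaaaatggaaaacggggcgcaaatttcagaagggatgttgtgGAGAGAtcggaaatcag
hlh-30 intron, with CACGTG, chrIV:4026024-4026224: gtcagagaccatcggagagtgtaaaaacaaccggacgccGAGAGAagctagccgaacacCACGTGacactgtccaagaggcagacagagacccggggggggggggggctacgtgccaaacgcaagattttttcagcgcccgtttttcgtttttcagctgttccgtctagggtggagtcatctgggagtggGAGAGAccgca
near hlh-25, hlh-26 and hlh-27, chrII:5543594-5543794: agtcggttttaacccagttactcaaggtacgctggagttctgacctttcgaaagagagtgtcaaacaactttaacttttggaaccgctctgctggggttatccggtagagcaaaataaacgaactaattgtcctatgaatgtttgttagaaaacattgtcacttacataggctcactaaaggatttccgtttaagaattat
near hlh-4, chrIII:9731367-9731567: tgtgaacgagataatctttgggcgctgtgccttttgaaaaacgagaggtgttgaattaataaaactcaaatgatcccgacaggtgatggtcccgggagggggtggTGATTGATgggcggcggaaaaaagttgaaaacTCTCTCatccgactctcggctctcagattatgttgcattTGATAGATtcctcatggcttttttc
near hlh-12, chrIV:8473490-8473690: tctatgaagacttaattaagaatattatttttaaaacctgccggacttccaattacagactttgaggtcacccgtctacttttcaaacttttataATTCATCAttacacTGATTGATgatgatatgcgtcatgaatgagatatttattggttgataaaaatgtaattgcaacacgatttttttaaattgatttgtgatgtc

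Among the leucine zipper genes, mdl-1 had the most peaks near its start. It encodes a Mad-like protein that pairs with the Max-like MXL-1. The gene (WBGene00003163) lies on the plus strand of chromosome X at 6742351 to 6743899. Signal below is the authors' score of a peak in the list pooled over replicates, on an unstated scale. IDR rank is by signal within the IDR list, and ranks in each replicate are by signal within its own list of 30000 peaks. IDR ranks count the 23 mitochondrial peaks: the strongest peak near a member ranked 94 in the IDR list and 71 among nuclear peaks. The peak at 6742092 to 6742435 had its summit 87 bp upstream of the start, with a signal of 57.2, an IDR rank of 661 and ranks of 366 in replicate 1 and 1287 in replicate 2. A second promoter peak, 1613 bp upstream, had a signal of 36.6, an IDR rank of 1568 and ranks of 668 and 4478 in replicates 1 and 2. Replicate 1 thus placed both promoter peaks higher than replicate 2 did.

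Beyond the promoter, mdl-1 had a peak 1667 bp downstream of its start, past the gene's end, with a signal of 63.0, an IDR rank of 536 and ranks of 1782 in replicate 1 and 295 in replicate 2. Its summit fell in the annotated non-coding RNA gene R03E9.10. Another lay 4514 bp upstream, with a signal of 37.1, an IDR rank of 1538 and ranks of 2184 and 1502 in replicates 1 and 2. These made 4 summits within 10 kb, a number reached by 72 of all protein-coding genes (0.36%), and mdl-1 was the nearest gene start to each of them. The promoter alone held 2, a number reached by 88 genes (0.441%). CACGTG stood within 100 bp of 3 of these 4 summits, those at 1667 bp, 87 bp and 4514 bp.

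The other promoter peak belonged to hlh-11, which encodes an AP-4-like bHLH protein. The gene (WBGene00001955) lies on the plus strand of chromosome III, and its peak at 9619230 to 9619573 had its summit 309 bp upstream, in no other gene's promoter window. The signal was 60.1, and the peak ranked 594 in the IDR list, 1131 in replicate 1 and 441 in replicate 2. Both replicates placed it among their 2197 strongest peaks. Its sequence holds runs of GAGAGA and no composite or CACGTG.

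The hlh-30 gene, which encodes the TFEB-like activator of autophagy and lysosome genes, had a row of peaks inside it. It spans 20159 bp, against a median of 1591 bp over the members and 2027 bp over all genes, and introns make up 16891 bp of it. Intron 1 held a summit 6616 bp from the gene start, with a signal of 33.0 and ranks of 1346 and 2642 in replicates 1 and 2. Intron 3, which is 7833 bp long, held the other 4. They lay at 8827 bp (signal 30.7, ranks 2737 and 2296 in replicates 1 and 2), 10631 bp (signal 30.7, ranks 1821 and 1986), 12330 bp (signal 74.2, IDR rank 373, ranks 528 and 461) and 14854 bp (signal 55.7, ranks 447 and 974). Those at 12330 and 14854 bp had the highest signals and stood higher in both replicates than the other 3.

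Shorter hlh-30 transcripts start within the gene, and the summits at 6616 and 14854 bp lay in the promoter window of such a start. The summit at 6616 bp, in intron 1, was 208 bp upstream of the transcript start at 6824 bp. The summit at 14854 bp was 1053 bp upstream of the start at 15907 bp, and the strongest was 3577 bp upstream of it. Counting every transcript start thus adds hlh-30 to the members with a promoter summit. The summits at 8827 and 10631 bp were 939 and 2743 bp downstream of the start at 7888 bp. At the main gene start the pooled list held a peak 91 bp upstream with a signal of 27.8 and a rank of 2421, just below the IDR list, which ends at a signal of 29.6. That peak ranked 15450 in replicate 1 and 2200 in replicate 2, a gap much wider than for the intron peaks.

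Only 4 protein-coding genes, hlh-30 among them, had 5 or more intron summits. Of the 429 genes with any, 352 had 1. As for intron length, 159 genes hold at least as much intron sequence as hlh-30, and 53 of them had an intron summit. The part of intron length in the count for hlh-30 was not tested. A further peak 7496 bp upstream of hlh-30 stood 128 bp upstream of cdc-73, a gene of the PAF1 complex (signal 33.4, ranks 17310 and 1037 in replicates 1 and 2). The map of pooled peaks around hlh-30 shows these values.

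**Figure D1:**
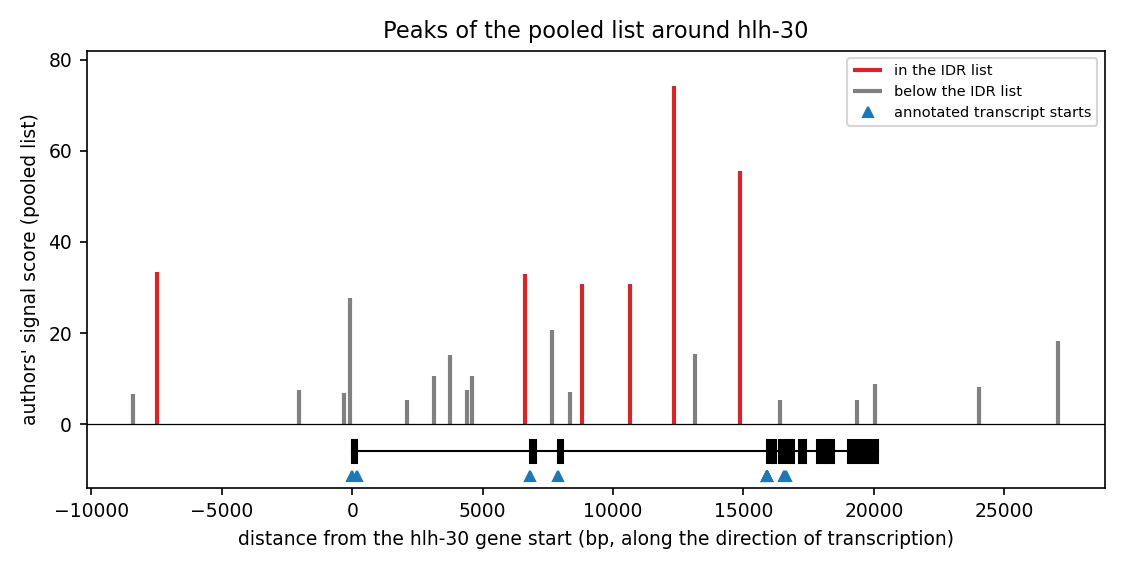
Peaks of the pooled list around hlh-30, with the distance of each summit from the gene start along the direction of transcription (x axis, bp) and the authors' signal score as height (y axis). Red lines are peaks of the IDR list, grey lines weaker peaks, black boxes exons and blue triangles annotated transcript starts; 5 red lines stand within the 2 long introns, the tallest at 12330 bp with a signal of 74.2.

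The Max-like partners had no IDR summit within 10 kb, against 32.5% of all genes with one. The nearest lay 15938 bp upstream of mxl-1, 91768 bp downstream of the start of mxl-2, the Mlx-like partner of MML-1, and 13495 bp downstream of the start of mxl-3. In the pooled relaxed list mxl-3 had a peak 142 bp upstream with a signal of 21.0 and a rank of 3652, found at rank 8163 in replicate 1 and 3472 in replicate 2. Of the partners mdl-1 and mxl-1, mdl-1 had 4 summits within 10 kb and mxl-1 had 0.

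Genes of the E protein and mesoderm had no summit in a promoter or intron, against 9.59% and 2.15% of all genes. The MyoD-like gene hlh-1, which acts in body wall muscle, had its nearest IDR summit 11864 bp upstream, and the Hand-like gene hnd-1 had it 11061 bp upstream. The only summit within 10 kb of hlh-2 was 5511 bp downstream of its start and 56 bp upstream of another gene, plag-15 (signal 35.9, IDR rank 1620, ranks 2209 and 2549 in replicates 1 and 2). In the relaxed pooled list hlh-1 had a promoter peak 64 bp upstream (signal 25.9, rank 2696), and the replicates placed it far apart, at 19340 in replicate 1 and 1468 in replicate 2.

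For the bHLH genes grouped here as neuronal, the label need not hold for each gene. The group had a summit within 10 kb at 1 of 8 members, against 32.5% of all genes. It lay 7587 bp downstream of the start of hlh-4, an achaete-scute-like gene of sensory neurons, between protein-coding genes (signal 41.7, IDR rank 1228, ranks 2657 and 1230 in replicates 1 and 2). It holds the composites TGATTGAT and TGATAGAT. The others had their nearest summit 11200 to 26255 bp away: 11200 bp for hlh-6, 11248 bp for hlh-15, 12589 bp for hlh-3, 12883 bp for the neurogenin gene ngn-1, 13589 bp for hlh-14, 16478 bp for the NeuroD gene cnd-1 and 26255 bp for hlh-13. In the pooled relaxed list cnd-1, hlh-6 and hlh-14 had a promoter peak, at ranks of 6510, 18929 and 26646. Such a peak stood in the promoters of 51.8% of all genes.

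The Olig-like genes hlh-17, hlh-31 and hlh-32, of which hlh-17 marks glia of the head, were among the members farthest from any peak. Their nearest summits were 134577, 131711 and 104183 bp away, and no relaxed pooled peak fell in their promoters. Such a promoter peak was found for 51.8% of all genes. For hlh-16, which acts in neurons, a summit stood 6494 bp downstream of its start and 1453 bp upstream of lmn-1, the lamin gene (signal 62.1, IDR rank 553, ranks 949 and 481 in replicates 1 and 2). Of all genes, the median distance to the nearest summit was 19201 bp.

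The REF-1 family holds bHLH genes known as Notch targets in the embryo. It had a summit within 10 kb of every member, 5 of 5, against 32.5% of all genes, but through only 2 peaks. The gene ref-1 itself, not a member by the rule, had no summit within 10 kb, and its nearest was 15102 bp upstream. The peak at 5543522 to 5543865 on chromosome II was the strongest near any member (signal 142, IDR rank 94, ranks 64 and 91 in replicates 1 and 2). It counted for hlh-27 at 3481 bp upstream, for hlh-25 at 8455 bp downstream of its start and for hlh-26 at 9952 bp upstream. Its summit lay within sls-2.2, a gene of the spliced leader RNA used in trans-splicing, and in the promoter window of C17C3.24. The nearest protein-coding gene start, that of ins-13, was 1170 bp away.

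The other REF-1 peak, on chromosome X at 17544366 to 17544709, stood 4101 bp downstream of the start of hlh-29 and 6517 bp upstream of hlh-28 (signal 67.3, IDR rank 460, ranks 980 and 390 in replicates 1 and 2). It was between protein-coding genes and in no promoter window, and hlh-29 was the nearest start. The genes hlh-28 and hlh-29 have the same length, 1148 bp, and point away from each other. Where close copies such as these, hlh-25 and hlh-27, hlh-17, hlh-31 and hlh-32, or the pair named tbx-30 share reads, an absent promoter peak is uncertain, since how such reads were treated is not stated.

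Of the remaining bHLH genes, hlh-33, hlh-10 and hlh-12 had summits within 10 kb, 3 of 5, against 32.5% of all genes. The peak near hlh-33, 4332 bp downstream of its start and past its end, was the next strongest in the set (signal 118, IDR rank 131, ranks 152 and 121 in replicates 1 and 2), and it lay 164 bp upstream of ddp-1. The summits near hlh-10 lay 7795 and 8439 bp downstream of its start (signals 36.3 and 62.8). The stronger had an IDR rank of 540 and ranks of 1005 and 528 in replicates 1 and 2. For hlh-12, a regulator of gonad migration, they lay 3128 and 5856 bp downstream of its start (signals 33.8 and 29.9), 862 bp upstream of spp-10 and 466 bp upstream of C28C12.11. The peak at 3128 bp ranked 1789 in the IDR list, 19702 in replicate 1 and 989 in replicate 2, and the peak at 5856 bp holds the composites ATTCATCA, the site on the minus strand, and TGATTGAT. The nearest summits of hlh-19 and hlh-34 were 21308 and 28638 bp away.

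None of the 19 T-box genes had a summit in a promoter or intron, against 9.59% and 2.15% of all genes. Of the 19, 4 had a summit within 10 kb, against 32.5% of all genes. For tbx-36 they lay 4848 and 5928 bp downstream of its start (signals 29.8 and 60.9), the nearer in an untranslated exon of gdh-1 and the farther in the non-coding RNA gene ZK829.13. The stronger had an IDR rank of 572 and ranks of 1049 and 403 in replicates 1 and 2. For tbx-38, which acts with tbx-37 in embryonic mesoderm, the summit was 6769 bp upstream, within a tRNA gene (signal 39.8, IDR rank 1352, ranks 973 and 2212 in replicates 1 and 2). For tbx-9, which shapes embryonic morphology, it was 7741 bp downstream of the start and 99 bp upstream of jmjd-4 (signal 51.6, IDR rank 799, ranks 823 and 775), and for tbx-7 it was 8597 bp downstream and 224 bp upstream of cyk-3 (signal 30.9, IDR rank 2059, ranks 7968 and 1609). The summits near tbx-38, tbx-9 and tbx-7 lay in another gene's promoter window, and those near tbx-36 in none.

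The other 15 T-box genes were tbx-2, tbx-8, tbx-11, both genes named tbx-30, tbx-31, tbx-32, tbx-33, tbx-34, tbx-35, tbx-37, tbx-39, tbx-40, tbx-41 and tbx-43. Their nearest summit was between 10624 bp away, for tbx-8, and 53929 bp away, for tbx-40. It was 33434 bp away for tbx-2, a gene of pharyngeal muscle. Relaxed pooled peaks stood in the promoters of tbx-37 (rank 5722), tbx-33 (rank 14539), tbx-2 (rank 21279) and tbx-43 (rank 23175). That is 4 of the 19 T-box genes, against 51.8% of all genes. The peak of tbx-37 ranked 1758 in replicate 1 and had no match in replicate 2.

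The Sox genes had no peak of any kind in their promoters in the pooled list, where 51.8% of all genes had one. The nearest IDR summits lay 22216 bp upstream of sox-2, 15368 bp upstream of sox-3 and 17606 bp upstream of sox-4. Replicate 1 alone had a weak promoter peak at sox-2 (rank 10782), and replicate 2 alone had one at sox-3 (rank 16375).

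The zinc finger genes gave no summit within 10 kb either, against 32.5% of all genes with one. The nearest lay 14550 bp upstream of egl-43, which acts in neuron migration and gonad development, 24683 bp downstream of the start of egl-46, a regulator of neuron fate including the Q lineage, and 38725 bp upstream of lin-26, which maintains epidermal fate. All of them had a relaxed pooled promoter peak, as did 51.8% of all genes. That of egl-46 was the strongest, 1730 bp upstream with a signal of 22.3 and a rank of 3346, at rank 1961 in replicate 2 and with no match in replicate 1. Those of egl-43 and lin-26 ranked 9168 and 18478.

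**Figure D2:**
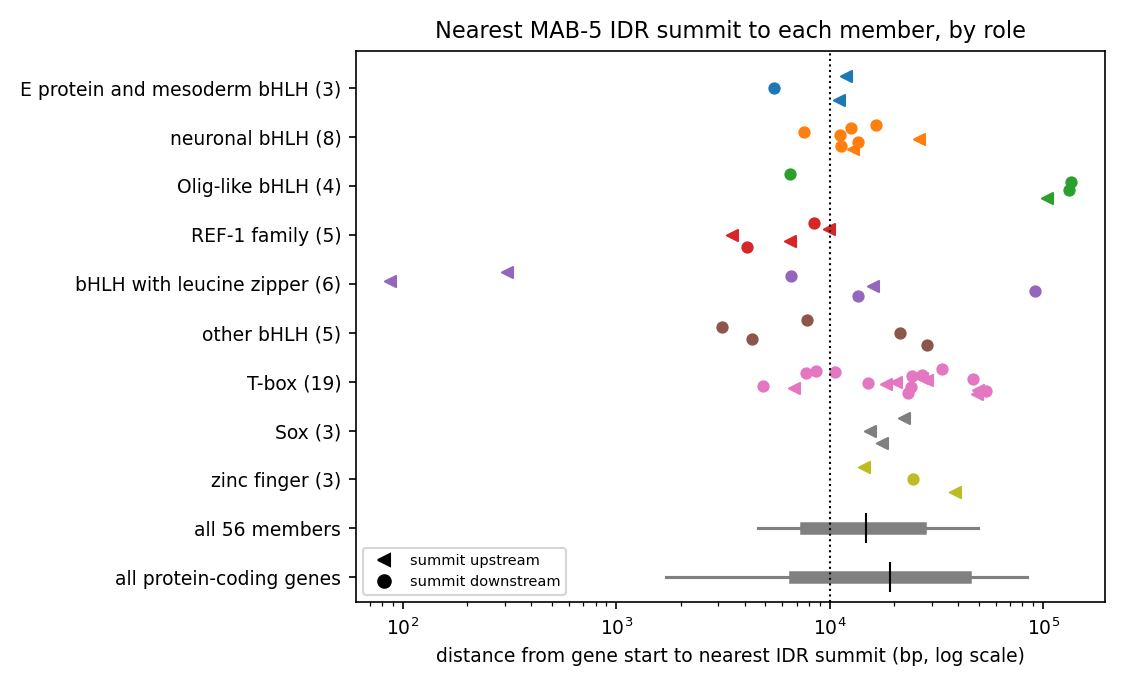
Distance from each member's gene start to the nearest IDR summit (x axis, bp, log scale), with members grouped by role (y axis, number of genes in brackets) and triangles for upstream, circles for downstream summits. The lower bars give the median (tick), the middle 50% (thick) and the 10th to 90th percentile (thin) of the members and of all protein-coding genes; the dotted line marks 10 kb, and the points farthest left are mdl-1 at 87 bp and hlh-11 at 309 bp.

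Distances to the nearest summit spread less over the members than over all genes at the quantiles computed. The median distance to the nearest summit was 14814 bp for members and 19201 bp for all genes. The 10th percentile was 4590 bp for members and 1704 bp for all genes, and the 90th was 49388 bp for members and 83767 bp for all genes. The members had a median upstream gap to the next protein-coding gene of 2415 bp, against 937 bp for all genes, and a median of 3 other gene starts within 10 kb, against 4. Of the 31 members with a gap of 2000 bp or more, 2 had a promoter summit, against 7.79% of all such genes. Of the 25 members with a smaller gap, 0 had one, against 10.4% of such genes. The part of gene spacing in these shares was not tested.

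The peaks counted for these genes were often in another gene's promoter or nearest another gene's start. How often this holds for peaks near other genes was not counted. The 18 members and 29 pairs of a member and a peak came from 26 distinct peaks. Of these, 3 lay in a member's promoter, 5 in a member's intron, 10 in the promoter of another gene only and 8 in none of these. Of the 29 pairs, 9 had the summit upstream of the member, 5 inside it and 15 beyond its end. The nearest gene start was a member's for 11 peaks, shared among 5 members: hlh-10, hlh-11, hlh-29, hlh-30 and mdl-1.

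Member peaks spanned 29.8 to 142 in signal. Their median signal was 40.7, against 44.1 over all nuclear IDR peaks. All 26 had a match of at least 1 bp in both replicates. Both replicates placed 14 of them (53.8%) among their 2197 strongest peaks, against 63.8% of all nuclear IDR peaks. The peaks at hlh-12 and upstream of hlh-30 showed the widest gaps in rank, both high in replicate 2 only.

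**Figure D3:**
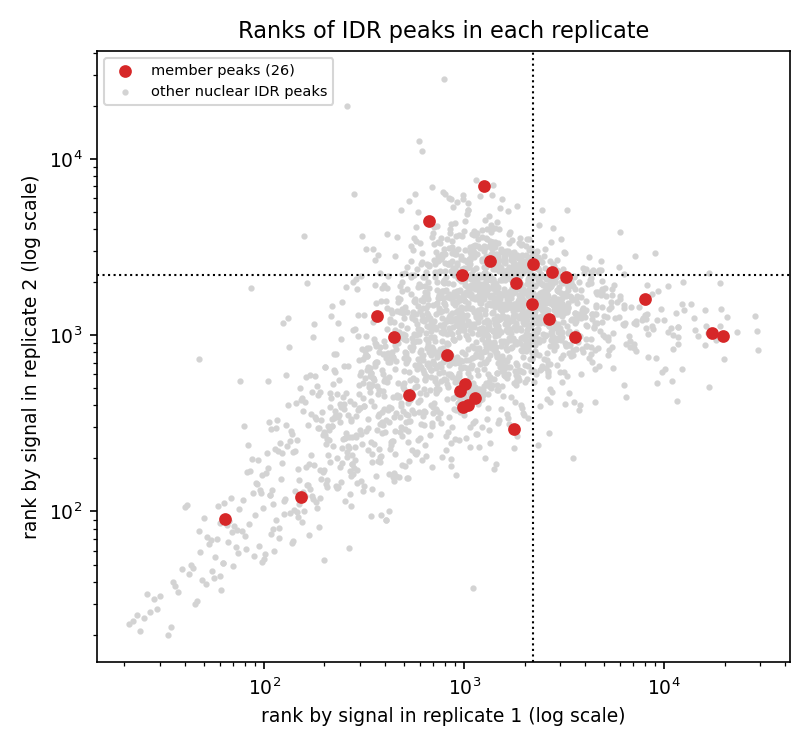
Rank by signal of each nuclear IDR peak in replicate 1 (x axis, log scale) and replicate 2 (y axis, log scale), with the 26 member peaks in red and the other nuclear IDR peaks in grey. Dotted lines mark rank 2197 in each list; 14 red points lie below both lines.

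Each replicate taken alone gave hlh-11 and mdl-1. The 2197 strongest peaks of replicate 1 gave promoter summits at hlh-11, mdl-1 and tbx-37 (3 of 56, 5.36%, against 9.23% of all genes). Those of replicate 2 gave hlh-11, mdl-1, hlh-1 and egl-46 (4 of 56, 7.14%, against 9.37%). Each further gene came from a single replicate. In introns, replicate 1 added a peak in hlh-11 at 724 bp (rank 1977, and 17436 in replicate 2), and replicate 2 added one in mdl-1 at 722 bp (rank 2014, and 3544 in replicate 1).

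The relaxed lists reach below the IDR list. In the pooled relaxed list 21 of 56 members had a promoter summit (37.5%, interval 26 to 50.6), against 51.8% of all genes, which lies above the interval. The deposited name of the relaxed list says that it holds background as well as peaks, and neighbours can share a peak, as hlh-25 and hlh-26 do, so the interval is too narrow. The median rank of the strongest such peak was 14539 for members and 9261 for all genes. Of the 19 members whose strongest promoter peak was below the IDR list, 10 had that peak in both replicates. The same count over all genes was not made. The strongest of the 19 were hlh-30, hlh-1, egl-46 and mxl-3. For each of these, replicate 2 ranked the peak higher than replicate 1 or was alone in having it. The next, tbx-37 (rank 5722), went the other way, with rank 1758 in replicate 1 and no match in replicate 2.

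**Figure D4:**
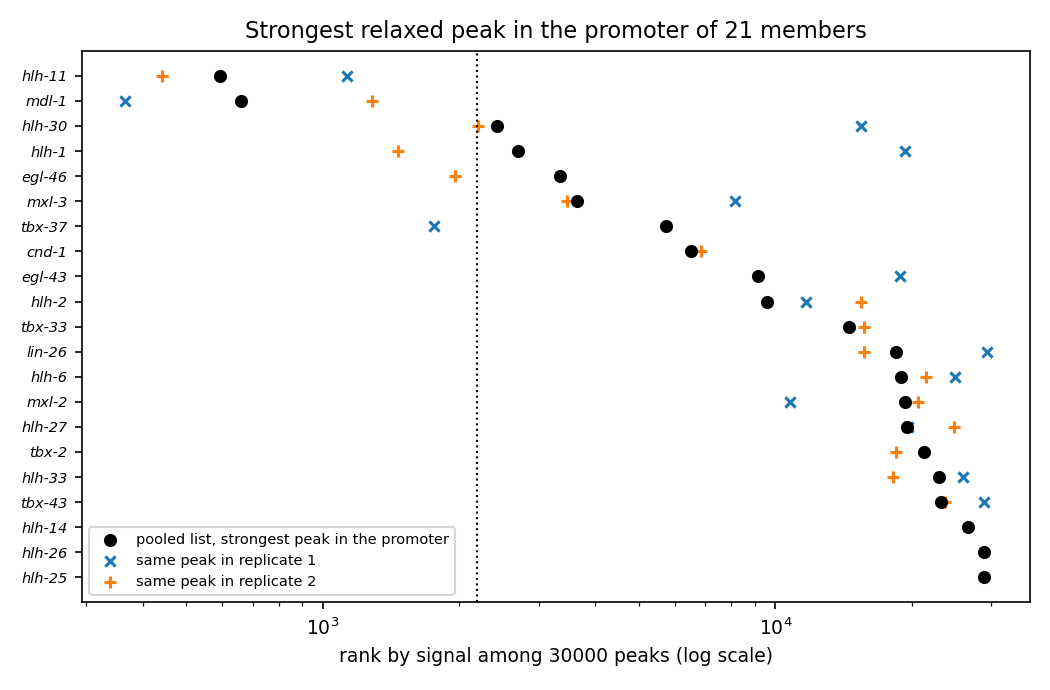
Rank of the strongest promoter peak in the pooled relaxed list (x axis, log scale, black points) for the 21 members that have 1 (y axis), with the rank of the same peak in replicate 1 (blue crosses) and replicate 2 (orange plus signs) where found. The dotted line marks the end of the IDR list at rank 2197; only hlh-11 and mdl-1 stand left of it in the pooled list.

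The letters of the Hox-PBC composite, TGATNNAT on either strand, stood within 100 bp of 4 of the 26 member summits (15.4%, Wilson interval 6.15 to 33.5), against 21.8% of all nuclear IDR summits. Within 50 bp the share was 15.4% of member summits, against 14.4% of all, so the order depended on the window. The 4 were those near hlh-4, hlh-12, hlh-2 and hlh-16, and none of the 8 summits in a member's own promoter or intron held it. The E-box CANNTG, which includes CACGTG and CAGCTG, stood at 14 summits (53.8%), against 60.4% of all. These shares did not differ beyond counting error. A match says only that the letters are there.

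For a pair of the 9 motifs searched, the share of all peaks lay outside the interval. CACGTG stood at 6 of 26 member summits (23.1%, interval 11 to 42.1), against 5.7% of all nuclear IDR summits. Of the 6, 3 were at mdl-1, 1 in hlh-30, 1 near hlh-12 and 1 near tbx-36, so they are not independent. TAATTA, a homeodomain core, stood at 5 summits (19.2%, interval 8.51 to 37.9), against 5.01% of all, and none of the 5 was in a member's promoter or intron. The median GC content was 44.8% in the windows of member peaks and 43.3% in all. No allowance was made for the number of motifs searched.

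Of the motifs searched from the outset, the rest were no more frequent than counting error allows. The T-box site GTGTGA stood at 5 summits (19.2%, against 12.3% of all), the Sox site ACAAAG at 2 (7.69%, against 9.98%), the Sox site ACAATG at 3 (11.5%, against 11%), and the MyoD-type E-box CAGCTG at 2 (7.69%, against 7.31%). GCGCAGGG, part of the motif that recruits the dosage compensation complex to X, stood at 0 of 26, which allows a share of up to 12.9% by the Wilson interval, against 0.92%. GAGAGA, looked for after the sequences had been seen, stood at 7 of the 8 summits in a member's own promoter or intron (87.5%), at 12 of the 26 member summits (46.2%) and at 42.5% of all nuclear summits. Of the 8, 5 are in hlh-30, and the median GC content of the 8 was 50.2%, against 43.3% in all nuclear windows. The part of base composition in these shares was not tested.

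**Figure D5:**
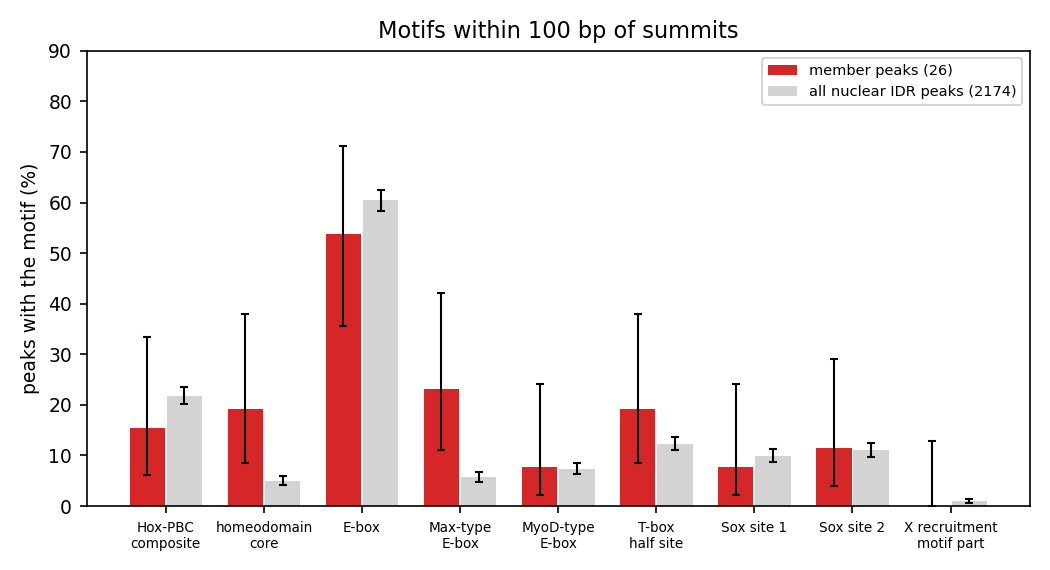
Share of peaks with each motif within 100 bp of the summit (y axis, percent) for the 26 member peaks (red) and all 2174 nuclear IDR peaks (grey), with 95% Wilson intervals as error bars. The red bars of the homeodomain core and the Max-type E-box reach 19.2% and 23.1%, against 5.01% and 5.7% in grey.

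Genes of the same families under other names, with partners or relatives of the zinc finger members, were counted in the same way. Of 18, 2 had a promoter summit, against 9.59% of all genes. They were aha-1, an ARNT-like partner of PAS-domain bHLH proteins (261 bp upstream, signal 49.6, IDR rank 879), and hif-1, the hypoxia factor (1953 bp upstream, signal 118.7, IDR rank 129). An intron summit stood in 1, against 2.15% of all genes: egl-44, at 3777 bp from its start, a TEAD gene of none of these families that was listed as a partner of egl-46. A summit lay within 10 kb of 8 of the 18, against 32.5% of all genes. The T-box gene mab-9, needed in the male hindgut, had 3 of them, the nearest 3209 bp upstream, and the nearest to lin-32, the Atonal-like gene of ray neurons, was 7486 bp upstream. The Twist-like gene hlh-8, which acts in the M lineage, had its nearest summit 43772 bp away.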

How the data were processed

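The authors deposited peak lists of 2 biological replicates, with no read counts, so the depth is unknown. Per the deposited text records, each replicate and both pooled gave a relaxed list, here of 30000 peaks, from its alignment and a control alignment, and IDR on these gave the optimal list. The aligner, the peak caller and the IDR threshold are not stated. The deposited signal is a score of unstated scale. The deposited −log10 q-value was not used. The pooled list holds each of the 2197 IDR peaks with the same values, so a signal is a pooled value with no replicate error.

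Lists on build ce11 were used with Ensembl release 115 genes (WBcel235) and the NCBI sequence of that assembly. The 23 mitochondrial IDR peaks were left out of motif shares. A summit was intronic if inside a gene and outside all its exons. A peak's match in another list was the strongest peak that shared 1 bp or more. The 95% Wilson intervals take in counting error alone. No test was run, since there was 1 group. Every member with a summit in its promoter, an intron or within 10 kb was named with its strongest peak, and the rest in lists. The sequence of 1 peak among the strongest is not reported here. Lists on build ce10 were not used. Alternatives were other windows, thresholds, overlaps, gene starts and single replicates. The GAGAGA search and the single-replicate ranks of relaxed peaks were added after seeing the data. Members and lists were chosen with earlier results of these data known. Assignment and motif search were tested on simulated data. Python 3.11.15, numpy 2.4.6, pandas 2.3.3, scipy 1.17.1 and matplotlib 3.10.9 were used.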

Additional observations from a re-analysis of the deposited data

How the results depend on the processing

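The count of members with a promoter summit was 2, against 9.59% of all genes. It was 2 with the 1098 strongest IDR peaks (5.36% of all genes), with any base of the peak (9.99%) and with 1000 bp upstream (7.32%), and 3 with 5000 bp upstream (15.1%) and with any transcript start (10.3%). It was 3 to 4 with 1 replicate left out (4 without replicate 1, against 9.37% of all genes, and 3 without replicate 2, against 9.23%). With peaks assigned to the closest gene start it was 5 (hlh-10, hlh-29 and hlh-30 in addition), against 9.43% of all genes. In each of these settings hlh-11 and mdl-1 were among them. The count with an intron summit was 1, and 2 without replicate 1 (2.15% of all genes) or without replicate 2 (2.13%). The count within 10 kb was 18, against 32.5% of all genes. It was 12 with the 1098 strongest peaks (18.5% of all genes), 18 without replicate 1 (31.5%) and with any base of the peak (32.8%), and 20 without replicate 2 (30.8%) and from the gene body (35.8%). Matches in both replicates numbered 26, and 23 when 50% of each peak had to overlap. The composite share of member peaks was 15.4% within 100 bp and within 50 bp, against 21.8% and 14.4% of all nuclear IDR peaks, so its order against all peaks turned round with the window. The median rank of relaxed promoter peaks was 16292 in replicate 1 and 16375 in replicate 2 (added after seeing the data), against 10464 and 10154 over all genes. The depth behind the peaks is unknown, and 1 member more or less is 1.79% of the 56. No paired analysis was possible because there was 1 group.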
